A study of Sus scrofa with 9 samples.

Results

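Kruppel-like factors (KLFs) are zinc finger transcription factors that bind GC-rich promoter elements, and the transcripts of 4 of them are described here in 9 reanimated pig hearts. The rule takes genes by name and no measured value, as the rows of the expression table with the symbol KLF2, KLF3, KLF4, KLF5, KLF6, KLF9, KLF10, KLF11, KLF13 or KLF15. Of these 10 genes, 4 had a row and are described: KLF4 (ENSSSCG00000005437), KLF9 (ENSSSCG00000021646), KLF10 (ENSSSCG00000027480) and KLF13 (ENSSSCG00000026006), of 25149 genes listed in all. KLF2, KLF3, KLF5, KLF6, KLF11 and KLF15 were found neither by symbol nor by reference gene identifier, and they were not analysed here.

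All hearts came from female American Yorkshire pigs, a few months old, after a simulated donation after circulatory death (DCD), in which the heart stops and is left warm and unperfused for a time before procurement. Group 1 (NRP + HOPE 24 h, pigs 27, 28 and 30) received normothermic regional perfusion (NRP), a warm blood perfusion inside the donor, and then 24 h of hypothermic oxygenated perfusion (HOPE), a cold machine perfusion. Per the paper, the HOPE perfusate held donor packed red blood cells in preservation solution. Group 2 (NRP + SCS 2 h, pigs 24, 25 and 29) received NRP and then 2 h of static cold storage (SCS), in cold preservation solution without flow. Group 3 (No NRP + HOPE 2 h, pigs 31, 33 and 34) was procured directly and received 2 h of HOPE. Every heart was then reanimated by 2 h of normothermic machine perfusion (NMP) with donor blood, and 1 apex biopsy per heart was sequenced at its end. Groups 1 and 2 differ in the method and the length of storage together, Groups 3 and 2 in NRP and the storage method together, and Groups 1 and 3 in NRP and storage length together, so these factors cannot be told apart.

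Values are TPM, the level of a transcript corrected for the length of its gene and expressed per 1000000 transcripts of the same heart. The sequencing depth is unknown. The labels call the material cardiomyocytes, and cardiomyocyte markers summed to between 21350 and 41520 TPM in every heart. Endothelial markers summed to between 430.9 and 958.0 TPM and fibroblast markers to between 692.3 and 1164 TPM, so the biopsies held other cardiac cells as well. In such bulk tissue, fewer cells of a type and less RNA per cell cannot be told apart. The 13 mitochondrially encoded protein genes took from 38.2% of TPM in pig 30 to 55.4% in pig 27, and a larger share leaves less of the fixed total for all other genes.

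As background, KLF2 and KLF4 are induced in endothelial cells by laminar flow through the MEK5, ERK5 and MEF2 pathway, and they raise vasoprotective genes such as the endothelial nitric oxide synthase gene NOS3 while restraining adhesion molecules and cytokines. KLF4 is also known as an early response gene in macrophages and vascular smooth muscle. KLF9 is a small factor induced by glucocorticoid and thyroid hormone receptors and linked to the circadian clock. KLF10, first described as a TGF-beta inducible early gene, recruits the SIN3A corepressor and modulates SMAD signaling. KLF13 shares that type of repressor domain, takes part in heart development and is known in T lymphocytes as an activator of the CCL5 gene.

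The 4 transcripts stood at 3 levels. KLF10 averaged 69.9 TPM and KLF9 66.6 TPM over 9 hearts, KLF4 averaged 35.3 TPM, and KLF13 averaged 19.4 TPM. KLF9 and KLF10 held the top places among the 4 in all 9 hearts, between percentiles 89.9 and 93.5 of the 11782 genes tested. KLF4 came next in 8 of 9 hearts and KLF13 was lowest in those 8. Over all 9 hearts KLF4 lay between percentiles 78.4 and 89.8 and KLF13 between 67.5 and 80.3. Pig 30 was the exception, with KLF13 at 32.8 TPM above KLF4 at 29.5 TPM. KLF9 and KLF10 had overlapping ranges, with KLF10 first in 6 hearts and KLF9 first in 3. The highest heart exceeded the lowest by 1.81 times for KLF9, 1.94 times for KLF10, 2.21 times for KLF4 and 2.67 times for KLF13.

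KLF4, the flow-responsive member, was measured in Group 1 at 26.7 TPM in pig 27, 33.2 in pig 28 and 29.5 in pig 30. In Group 2 its level was 42.4 TPM in pig 24, 27.1 in pig 25 and 26.3 in pig 29. In Group 3 it was 34.3 TPM in pig 31, 40.1 in pig 33 and 58.3 in pig 34. All Group 3 hearts therefore lay above all Group 1 hearts, while Group 2 overlapped Group 1 and, through its highest heart, pig 24, also Group 3. The group means were 29.8 ± 3.27, 31.9 ± 9.04 and 44.2 ± 12.5 TPM (SD, n = 3 each) for Groups 1, 2 and 3.

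KLF9, the hormone-responsive member, stood at 50.2, 71.6 and 85.7 TPM in pigs 27, 28 and 30 of Group 1. In Group 2 it stood at 67.4, 64.1 and 80.0 TPM in pigs 24, 25 and 29. In Group 3 it stood at 47.4, 67.4 and 65.4 TPM in pigs 31, 33 and 34. The 3 groups overlapped, with the lowest values in pig 31 and pig 27 and the highest in pig 30. The means were 69.1 ± 17.8, 70.5 ± 8.35 and 60.0 ± 11.0 TPM (SD, n = 3 each).

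KLF10, the TGF-beta inducible member, was at 52.0, 77.3 and 88.4 TPM in pigs 27, 28 and 30 of Group 1. The Group 2 hearts, pigs 24, 25 and 29, gave 56.3, 61.7 and 70.3 TPM. The Group 3 hearts, pigs 31, 33 and 34, gave 49.6, 77.4 and 96.4 TPM. Group 2 was the narrowest and fell inside the range of both HOPE groups, with pig 31 again lowest and pig 34 highest. The means were 72.6 ± 18.6, 62.8 ± 7.08 and 74.5 ± 23.5 TPM (SD, n = 3 each).

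KLF13 was the lowest and most variable of the 4, at 12.3, 15.6 and 32.8 TPM in pigs 27, 28 and 30. Pigs 24, 25 and 29 gave 14.1, 14.9 and 24.8 TPM, and pigs 31, 33 and 34 gave 13.8, 23.3 and 22.8 TPM. Each group held at least 1 heart near the bottom of the range, and the groups overlapped. The means were 20.2 ± 11.0, 17.9 ± 5.94 and 19.9 ± 5.36 TPM (SD, n = 3 each).

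**Figure D1:**
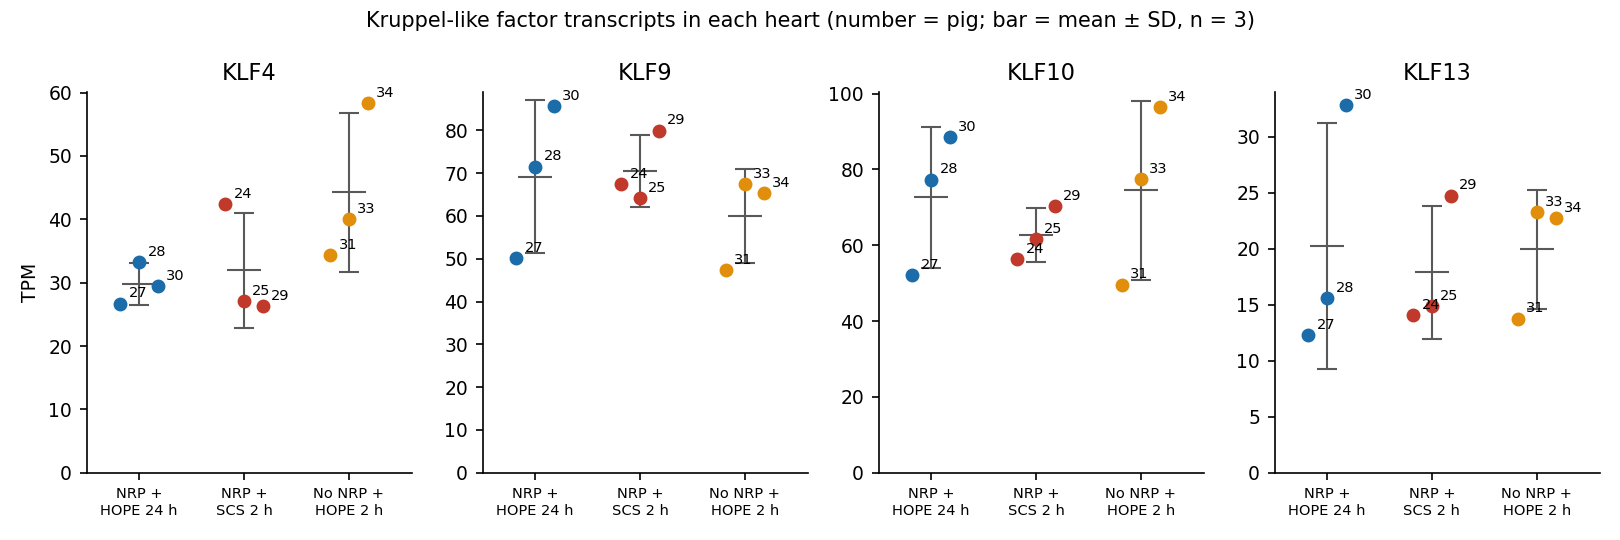
TPM of KLF4, KLF9, KLF10 and KLF13 in each of the 9 hearts, with 1 point per heart labelled by pig number and bars for the group mean ± SD (n = 3). The Group 3 hearts lie above the Group 1 hearts for KLF4 (34.3 to 58.3 against 26.7 to 33.2 TPM), and the groups overlap for the other 3 genes.

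The spread between hearts of a group was set beside that of genes of like level (mean TPM within a factor of 2 of the member). KLF9 was among the steadier of these genes, with a within-group SD of 0.29 in log2 units and 21.5% of 1342 genes below it. KLF4 had an SD of 0.32, with 29.0% of 2163 genes below it, and KLF10 an SD of 0.37, with 45.8% of 1280 genes below it. KLF13 varied more than most, with an SD of 0.53 and 76.8% of 3168 genes below it.

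The comparison of Group 1 with Group 2 asks how 24 h of HOPE differs from 2 h of SCS when both follow NRP. None of the 4 transcripts differed beyond the spread between hearts, at an adjusted p of 0.993 each (limma, Benjamini-Hochberg over 11782 genes). The differences in log2(TPM + 1), Group 1 minus Group 2, were -0.07 ± 0.30 (SE) for KLF4, -0.06 ± 0.28 for KLF9, 0.18 ± 0.31 for KLF10 and 0.09 ± 0.38 for KLF13. The background was small, since 0.0255% of the genes tested passed an adjusted p of 0.05 with a log2 fold change over 1 in size. At an unadjusted p under 0.05, 1.82% of all genes were higher and 3.14% lower, and 0 of the 4 members were either. The groups did not overlap for 9.82% of all genes and for 0 of the 4 members. The 95% confidence intervals for the ratio of Group 1 to Group 2 ran from 0.61 to 1.49 for KLF4, 0.63 to 1.46 for KLF9, 0.72 to 1.79 for KLF10 and 0.60 to 1.88 for KLF13, so ratios inside these limits are not excluded. Exact permutation tests gave a p of 0.5 to 0.9 over the 4 genes, where 0.1 is the smallest that 3 hearts against 3 allow.

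The median gene differed by -0.12 on the log2 scale between Groups 1 and 2, and median-of-ratios scaling moved that median to 0.0. Against this shift, the signs of KLF4 and KLF9 turned, to 0.07 and 0.09, and neither passed the test under either scaling. For KLF10 the scaled values were 71.5, 85.4 and 66.7 TPM in Group 1 and 52.8, 58.7 and 66.3 TPM in Group 2, which no longer overlapped, by a narrow gap. After that scaling 14.6% of all genes did not overlap in this comparison. Its difference was largest among the 19 alternative settings when pig 27 was left out, at 0.40, and its lowest unadjusted limma p over them was 0.0912.

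The comparison of Group 3 with Group 2 asks how direct procurement with 2 h of HOPE differs from NRP with 2 h of SCS. KLF4 gave the largest difference of the 4, at 0.46 ± 0.30 (SE) on the log2 scale, or 1.37 times higher in Group 3 with a 95% interval of 0.88 to 2.14. It did not pass the test (unadjusted p = 0.151, adjusted p = 0.821, limma), and 2 of 3 Group 3 hearts lay below pig 24 of Group 2. Without pig 34, the heart with the highest KLF4, the difference was 0.24, and without pig 24 it was 0.67. KLF9 gave -0.24 ± 0.28, KLF10 0.20 ± 0.31 and KLF13 0.15 ± 0.38, with adjusted p between 0.917 and 0.973 in limma. Over all genes, 0.0509% passed the adjusted threshold with a log2 fold change over 1 in size, 2.57% were higher and 4.65% lower at an unadjusted p under 0.05, and 14.7% did not overlap. None of the 4 members met any of these 4 criteria. Exact permutation p values were 0.3 for KLF4, 0.4 for KLF9, 0.6 for KLF10 and 1.0 for KLF13.

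The comparison of Group 1 with Group 3 sets 24 h of HOPE after NRP against 2 h of HOPE without NRP. KLF4 was the only member whose groups did not overlap, with the highest Group 1 heart (pig 28, 33.2 TPM) just below the lowest Group 3 heart (pig 31, 34.3 TPM). Its difference was -0.53 ± 0.30 (SE) on the log2 scale, a ratio of 0.69 with a 95% interval of 0.44 to 1.09. The test did not pass (unadjusted p = 0.102, adjusted p = 0.891, limma), and the exact permutation p was 0.1, the smallest possible. Across all genes, 7.48% did not overlap in this comparison, 0.0509% passed the adjusted threshold with a log2 fold change over 1 in size, and 2.78% and 3.23% were higher and lower at an unadjusted p under 0.05. Leaving out pig 34 brought the KLF4 difference to -0.31. The other members stood at 0.18 ± 0.28 for KLF9, -0.02 ± 0.31 for KLF10 and -0.06 ± 0.38 for KLF13, with adjusted p of 0.989 to 0.998 in limma. Each group enters 2 of the 3 comparisons, so the 3 sets of values are not independent of each other.

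**Figure D2:**
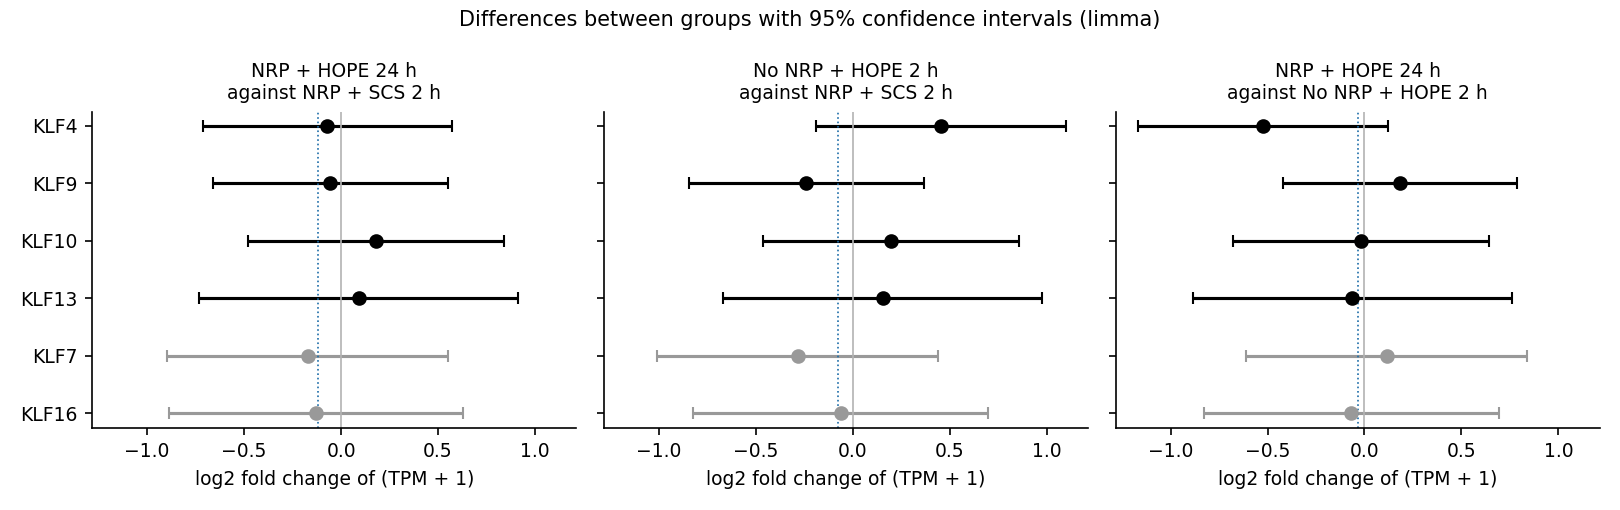
Differences in log2(TPM + 1) with 95% confidence intervals from limma for the 4 members (black) and for KLF7 and KLF16 (grey) in the 3 comparisons, with the median of all genes as a dotted line. Every interval includes 0, and KLF4 lies farthest from it, at 0.46 for Group 3 against Group 2 and -0.53 for Group 1 against Group 3.

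Within a heart, the ratio of 2 transcripts does not depend on the mitochondrial share or on any scaling of the total, and all 6 ratios among the 4 members were formed after the levels had been seen. The ratio of KLF10 to KLF9 did not overlap between the hearts stored by HOPE and those stored by SCS. This pooling of both HOPE groups was not planned. Of 10993 other genes, 3.77% also separated these hearts when divided by KLF9, and 11.1% when divided by KLF10. In Group 1 the ratio of KLF10 to KLF9 was 1.04 in pig 27, 1.08 in pig 28 and 1.03 in pig 30. In Group 3 it was 1.05 in pig 31, 1.15 in pig 33 and 1.47 in pig 34. In Group 2, stored by SCS, it was 0.84 in pig 24, 0.96 in pig 25 and 0.88 in pig 29. KLF10 thus exceeded KLF9 in 6 of 6 hearts stored by HOPE and lay below it in 3 of 3 hearts stored by SCS.

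The mean log2 ratio was 0.17 ± 0.20 (SD, n = 6) in the hearts stored by HOPE and -0.17 ± 0.10 (SD, n = 3) after SCS, a difference of 0.34. The exact permutation test over hearts gave p = 0.0238, two-sided, and 0.143 after adjustment over the 6 ratios, so the difference did not pass. That adjustment leaves out the other comparisons formed for each ratio. The difference was 0.24 for Group 1 and 0.44 for Group 3, each against Group 2, with an exact permutation p of 0.1 in both. Leaving out single hearts gave differences from 0.26 to 0.40, and the p rose to between 0.0714 and 0.107 when a Group 2 heart was left out of the exact permutation test. Erythroid markers summed to 73.9 to 424.8 TPM in Group 1, 71.4 to 133.0 TPM in Group 2 and 222.1 to 372.6 TPM in Group 3, so Group 1 overlapped Group 2 and Group 3 did not. Neutrophil markers summed to 1.52 to 5.46 TPM, 4.84 to 14.5 TPM and 0.80 to 4.26 TPM in the same order, with CSF3R and MPO listed at 0 in all 9 hearts. Of the 2 tested, S100A9 was lower in Group 1 and Group 3 than in Group 2 by log2 fold changes of -1.35 (unadjusted p = 0.0117) and -2.17 (unadjusted p = 0.000389), with adjusted p of 0.792 and 0.14 in limma. Its levels were low, at 0.36, 0.77 and 2.66 TPM in Group 1, 8.02, 4.78 and 1.79 TPM in Group 2 and 0.34, 0.20 and 0 TPM in Group 3. The other, ELANE, differed by -0.21 and -0.14 (unadjusted p = 0.623 and 0.750, limma). Over all genes, 3.14% and 4.65% were lower at an unadjusted p under 0.05. The part of these markers in the ratio was not tested. The hearts stored by HOPE pool both lengths of storage, with and without NRP. Of 10993 other genes above 0 TPM in 9 hearts, 3.77% separated the same hearts without overlap when divided by KLF9, and 11.1% when divided by KLF10.

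**Figure D3:**
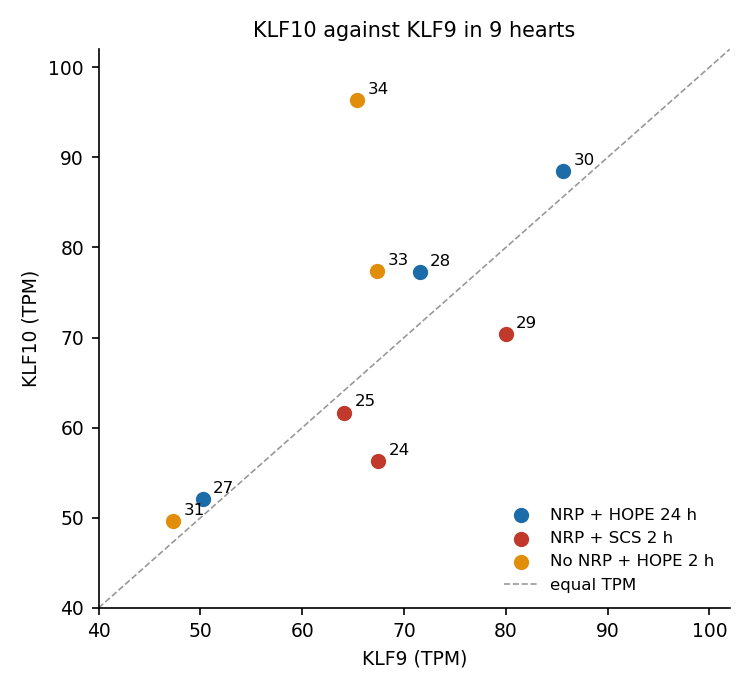
KLF10 against KLF9 in TPM for the 9 hearts, labelled by pig number and coloured by group, with a dashed line of equal TPM. The 6 hearts stored by HOPE lie above the line and the 3 stored by SCS below it, from 0.84 in pig 24 to 1.47 in pig 34.

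Of the 3 ratios with KLF4, those of KLF9 and KLF10 did not overlap between Groups 1 and 3, and that of KLF13 did. KLF9 exceeded KLF4 by 1.88, 2.16 and 2.91 times in pigs 27, 28 and 30 of Group 1, and by 1.38, 1.68 and 1.12 times in pigs 31, 33 and 34 of Group 3. KLF10 exceeded KLF4 by 1.95, 2.33 and 3.00 times in Group 1 and by 1.45, 1.93 and 1.65 times in Group 3. The gap was narrow for KLF10, between 1.95 and 1.93 times. KLF4 alone already separated these groups, and 24.4% of 10993 other genes did so when divided by KLF4, so these ratios add nothing particular to KLF9 or KLF10. The log2 differences, Group 1 minus Group 3, were 0.73 and 0.52, each with an exact permutation p of 0.1 and 0.3 after adjustment over the 6 ratios. Group 2 overlapped both, since its KLF9 to KLF4 ratio ran from 1.59 in pig 24 to 3.04 in pig 29.

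Across the 9 hearts, 2 of the 6 pairs of members had a correlation of log2(TPM + 1) that passed adjustment, KLF13 with KLF10 and KLF13 with KLF9. KLF10 and KLF13 had a Pearson r of 0.81 (permutation p = 0.012, 0.038 adjusted over 6 pairs) and a Spearman rho of 0.82 (permutation p = 0.0108, 0.0415 adjusted). KLF9 and KLF13 had an r of 0.77 (permutation p = 0.0126, 0.038 adjusted) and a rho of 0.80 (permutation p = 0.0138, 0.0415 adjusted). KLF9 and KLF10 had an r of 0.72 (permutation p = 0.0269, 0.0538 adjusted) and a rho of 0.58 (permutation p = 0.108, 0.216 adjusted). The pairs with KLF4 gave r of -0.04 with KLF9, 0.41 with KLF10 and 0.11 with KLF13, with permutation p of 0.928, 0.277 and 0.775.

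Without the 2 hearts farthest from the median of the first gene, r was 0.84 for KLF10 and KLF13, 0.70 for KLF9 and KLF13 and 0.29 for KLF9 and KLF10, so the last pair rests on pigs 27 and 31. With group means subtracted, the 3 correlations were 0.81, 0.91 and 0.91. They did not hold under another scaling: after median-of-ratios scaling r was 0.44 for KLF10 and KLF13, 0.16 for KLF9 and KLF13 and 0.25 for KLF9 and KLF10, with adjusted permutation p between 0.63 and 0.68. With the mitochondrially encoded genes left out, they were 0.66, 0.55 and 0.53, at an adjusted permutation p of 0.295. The hearts lowest in all 3 genes, pigs 27 and 31, had mitochondrial shares of 55.4% and 54.9%, and pig 30, highest in KLF9 and KLF13, had the lowest share at 38.2%. Pig 28 had a like share of 54.7% with 71.6 TPM of KLF9 and 77.3 TPM of KLF10, both above their 9-heart means, and 15.6 TPM of KLF13, below its mean. The part of the mitochondrial share in the correlations was tested only by the scalings above.

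**Figure D4:**
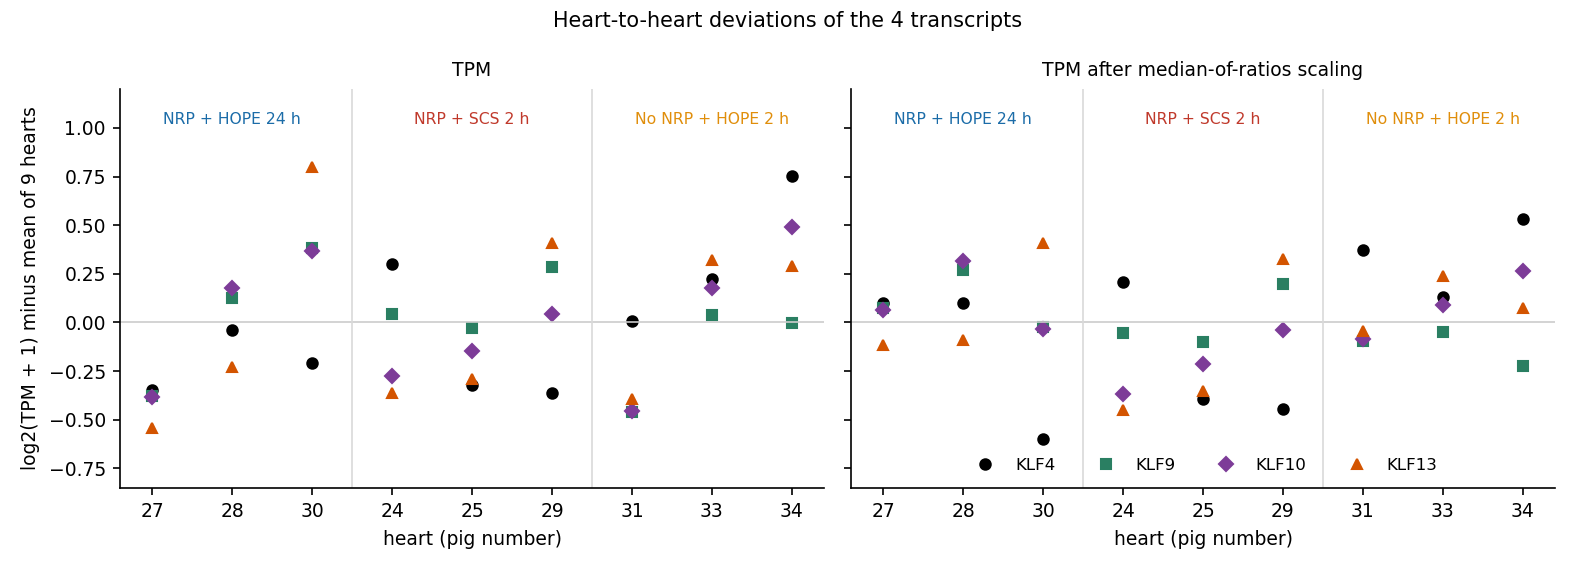
Deviation of log2(TPM + 1) from the 9-heart mean for the 4 transcripts in each heart, by group, before (left) and after (right) median-of-ratios scaling. KLF9, KLF10 and KLF13 lie lowest in pigs 27 and 31 on the left. On the right these hearts lie nearer to 0, and the pairwise r of the 3 genes falls to between 0.16 and 0.44.

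For each member, the 3 genes most like it were taken by Pearson r of log2(TPM + 1) over the 9 hearts, among 4886 genes with a symbol and a mean of at least 5 TPM. KLF4 was closest to SOCS1, a feedback inhibitor of cytokine signaling (r = 0.93), to TMX4 (r = 0.92) and to GBP2, an interferon-induced GTPase (r = 0.90). Without pigs 24 and 34 these fell to 0.73, 0.66 and 0.66, so they rest in part on the hearts highest in KLF4. KLF9 was closest to CRKL, a signaling adaptor (r = 0.98), to RYK, a Wnt receptor (r = 0.97), and to MARCH6, a ubiquitin ligase (r = 0.97).

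KLF10 was closest to CTBP2, a transcriptional corepressor (r = 0.97), to ITM2B (r = 0.96) and to GNLY (r = 0.96). KLF13 was closest to EAPP (r = 0.98), FUCA1, a lysosomal fucosidase (r = 0.97), and CLSTN1 (r = 0.96). Leaving out the 2 hearts farthest from the median of the member kept these at 0.89 or above for KLF9, 0.92 or above for KLF10 and 0.95 or above for KLF13. After median-of-ratios scaling, RYK and GNLY fell to 0.66 and 0.65, and the other 4 neighbours of KLF9 and KLF10 stayed between 0.87 and 0.94. These are the highest of many correlations over 9 hearts that share their scaling, and they are given as a description.

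Of the rest of the family, KLF7 averaged 12.6 TPM and KLF16 averaged 1.68 TPM over 9 hearts, and neither differed in any of the 3 comparisons (adjusted p 0.917 to 0.996, limma). KLF1, KLF8, KLF12 and KLF17 were listed at 0 in every heart, and KLF14 was listed above 0 only in pig 28. The related SP factors, which bind the same GC boxes, gave 0 of 4 tested members at an unadjusted p under 0.05 in each comparison. The corepressors and coactivators used by KLFs gave 0 of 9 as well. Over all genes that share was 4.97% for Group 1 against Group 2, 7.22% for Group 3 against Group 2 and 6.01% for Group 1 against Group 3, so counts of 0 in lists this short are not a result about them.

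The endothelial genes known to be induced by KLF2 or KLF4 had mostly lower values in Group 1 than in the other groups, and 0 passed the adjusted test. Of 10 genes written down, 6 could be tested. Like the other lists, this list was chosen with earlier results of these data known. Its counts beside the share of all genes are therefore a description and not a test of enrichment. Against Group 2, 2 of 6 had an unadjusted p under 0.05, both lower in Group 1, where 3.14% of all genes were. The median log2 fold change of the 6 was -0.63, beside -0.12 over all genes. Against Group 3, 3 of 6 were lower at an unadjusted p under 0.05, beside 3.23% of all genes, and the median was -0.73 beside -0.03. Between Groups 3 and 2 the count was 0 of 6 and the median 0.10.

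NOS3, which makes nitric oxide in endothelium, was at 23.1, 27.3 and 48.2 TPM in pigs 27, 28 and 30, at 74.5, 50.9 and 54.7 TPM in pigs 24, 25 and 29, and at 48.9, 68.2 and 42.2 TPM in pigs 31, 33 and 34. Every Group 1 heart lay below every Group 2 heart, at a log2 fold change of -0.90 (unadjusted p = 0.0152, adjusted p = 0.849, limma). Against Group 3 the NOS3 values overlapped, at -0.72 (unadjusted p = 0.045, adjusted p = 0.826, limma). THBD, the thrombomodulin gene, was at 88.7, 151 and 162 TPM in Group 1, at 181, 228 and 243 TPM in Group 2 and at 190, 353 and 197 TPM in Group 3. THBD in Group 1 was below both other groups without overlap, by log2 fold changes of -0.73 (unadjusted p = 0.0352) and -0.86 (unadjusted p = 0.0155) against Groups 2 and 3, with adjusted p of 0.954 and 0.670 in limma. SLC9A3R2, a scaffold protein gene of this list, was lower in Group 1 than in Group 3 by -1.23 (unadjusted p = 0.00573, adjusted p = 0.466, limma).

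Endothelial markers had the same sign as this list against Group 2, with all 9 tested lower in Group 1. Their median was -0.47, beside -0.12 over all genes. At an unadjusted p under 0.05 the count was 0 of 9, beside 3.14% of all genes lower. Their sum ran from 430.9 to 899.8 TPM in Group 1, from 778.6 to 926.7 TPM in Group 2 and from 462.0 to 958.0 TPM in Group 3. Against Group 3, 7 of 9 had lower values at a median of -0.07, beside -0.035 over all genes. There 1 of 9, CLEC14A, had an unadjusted p under 0.05, at -0.83, beside 3.23% of all genes lower. Of the smooth muscle and pericyte markers, 2 of 6 were lower in Group 1 than in Group 3 at an unadjusted p under 0.05, ACTA2 by -1.28 and NOTCH3 by -1.04, beside 3.23% of all genes. The other 4 included 2 with higher values, and the list median was -0.43. Their sum ran from 230.7 to 426.7 TPM in Group 1, 322.3 to 469.1 TPM in Group 2 and 439.4 to 505.9 TPM in Group 3, with MYH11 listed at 0 in every heart. The part of these cells in the values was not tested. KLF4 itself stood at -0.07 against Group 2, where the list median was -0.63, and at -0.53 against Group 3, where it was -0.73.

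Genes that KLF2 and KLF4 are known to restrain in endothelium showed the opposite sign against Group 3. In bulk tissue other cells can also express them, and KLF2 had no row. All 6 tested had higher values in Group 1 than in Group 3, at a median of 0.56, beside -0.035 over all genes. KDR, at 0.10, is also counted among the endothelial markers above. The list median was 0.26 for Group 1 against Group 2, with 4 of 6 higher, and -0.52 for Group 3 against Group 2, with 4 of 6 lower. Over all genes these medians were -0.12 and -0.07. Against Group 3, 2 of 6 had an unadjusted p under 0.05 and were higher in Group 1, beside 2.78% of all genes. VCAM1, a leukocyte adhesion molecule, was at 127, 175 and 184 TPM in Group 1, at 119, 139 and 114 TPM in Group 2 and at 32.9, 62.1 and 124 TPM in Group 3. All Group 1 hearts lay above all Group 3 hearts, at a log2 fold change of 1.32 (unadjusted p = 0.0041, adjusted p = 0.42, limma). CCL2, the monocyte chemoattractant gene, was at 2340, 4867 and 2844 TPM in Group 1, at 1882, 2064 and 1152 TPM in Group 2 and at 1373, 2579 and 1389 TPM in Group 3. In every heart this exceeded the summed endothelial markers, which ran from 430.9 to 958.0 TPM. Which cells gave the values of this list was not tested. The log2 fold changes of CCL2 were 0.95 against Group 2 and 0.91 against Group 3 (unadjusted p = 0.012 and 0.0157, adjusted p = 0.798 and 0.670, limma). Against Group 2, CCL2 was the only one of the 6 at an unadjusted p under 0.05, beside 1.82% of all genes higher. Between Groups 3 and 2, 1 of 6 was lower at that threshold, beside 4.65% of all genes: VCAM1, by -0.95 (unadjusted p = 0.0273, adjusted p = 0.622, limma).

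Upstream of KLF4, 1 of 10 tested genes of the shear stress pathway had an unadjusted p under 0.05 in Group 1 against Group 2, and 0 of 10 did in either other comparison. Over all genes, 3.14% were lower and 1.82% higher at that threshold, and 1 of 10 is not far from that. That gene was MEF2D, a transcription factor of this pathway, at 15.4, 15.2 and 28.7 TPM in Group 1 and 33.0, 33.1 and 30.5 TPM in Group 2 (log2 fold change -0.74, unadjusted p = 0.0373, adjusted p = 0.965, limma). The highest Group 1 heart lay below the lowest Group 2 heart.

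**Figure D5:**
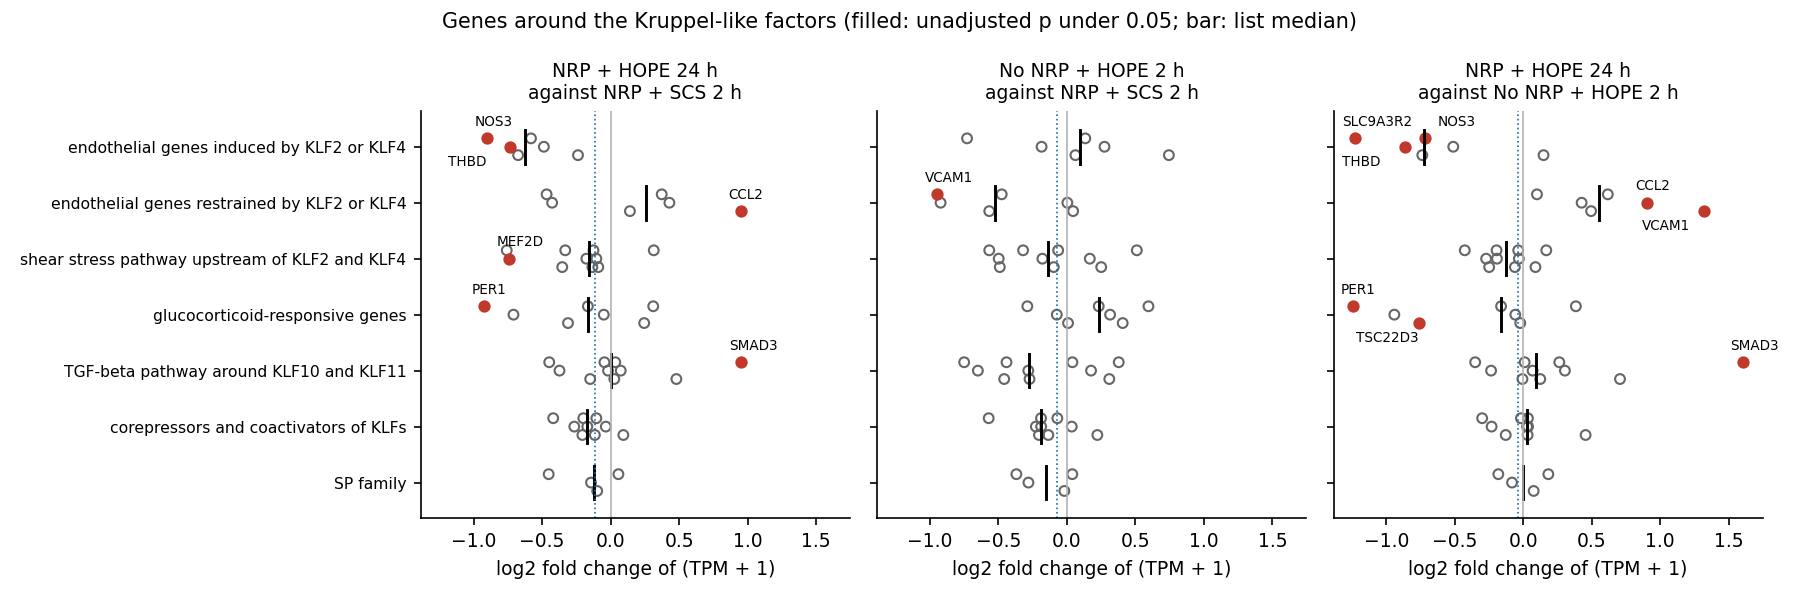
Differences in log2(TPM + 1) for the tested genes of 7 lists around the KLFs in the 3 comparisons, with 1 circle per gene, filled at an unadjusted p under 0.05, a bar at the list median and a dotted line at the median of all genes. Of the 6 endothelial genes induced by KLF2 or KLF4, all lie left of 0 for Group 1 against Group 2 (median -0.63) and 5 for Group 1 against Group 3 (median -0.73), and 0 genes of these lists had an adjusted p under 0.05.

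Around KLF9, 7 glucocorticoid-responsive genes were tested. At an unadjusted p under 0.05, 1 of 7 was lower in Group 1 than in Group 2, beside 3.14% of all genes, 2 of 7 were lower in Group 1 than in Group 3, beside 3.23%, and 0 of 7 differed between Groups 3 and 2. In each comparison with Group 1, 1 of 7 did not overlap, beside 9.82% and 7.48% of all genes. PER1, a clock gene induced by glucocorticoids, was at 50.6, 32.6 and 43.7 TPM in pigs 27, 28 and 30, at 91.3, 63.5 and 88.3 TPM in pigs 24, 25 and 29, and at 85.9, 76.4 and 151 TPM in pigs 31, 33 and 34. Group 1 lay below both other groups without overlap, by log2 fold changes of -0.93 against Group 2 (unadjusted p = 0.0108) and -1.24 against Group 3 (unadjusted p = 0.00151), with adjusted p of 0.790 and 0.300 in limma. TSC22D3, which encodes the glucocorticoid-induced leucine zipper, was lower in Group 1 than in Group 3 by -0.76 (unadjusted p = 0.0328, adjusted p = 0.795, limma). The most abundant genes of the list, DUSP1, a phosphatase of MAP kinases, and SGK1, a kinase, differed by 0.25 and -0.05 against Group 2 and by -0.16 and -0.06 against Group 3, without passing the test. KLF9 itself differed by -0.06 and 0.18. The list medians were -0.17, 0.23 and -0.16 for Group 1 against 2, Group 3 against 2 and Group 1 against 3.

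Around KLF10, 10 genes of TGF-beta signaling were tested, ligands, receptors and SMADs. At an unadjusted p under 0.05, 1 of 10 was higher in Group 1 than in Group 2, beside 1.82% of all genes, 1 of 10 was higher in Group 1 than in Group 3, beside 2.78%, and 0 of 10 differed between Groups 3 and 2. In each comparison with Group 1, 1 of 10 did not overlap, beside 9.82% and 7.48% of all genes. The 3 ligand genes and both receptor genes tested had no unadjusted p under 0.05 in any comparison. Over all genes that share was 4.97% for Group 1 against 2, 7.22% for Group 3 against 2 and 6.01% for Group 1 against 3. For so few genes this is not a result about them. TGFB1, the most abundant ligand, differed by -0.04 for Group 1 against Group 2, -0.75 for Group 3 against Group 2 and 0.71 for Group 1 against Group 3, at an adjusted p of 0.736 or above in limma. SMAD3, a receptor-activated signal transducer, was at 27.5, 40.6 and 78.1 TPM in Group 1, at 20.7, 24.6 and 22.3 TPM in Group 2 and at 11.1, 20.1 and 12.1 TPM in Group 3. Group 1 lay above both other groups without overlap, by log2 fold changes of 0.95 against Group 2 (unadjusted p = 0.022) and 1.60 against Group 3 (unadjusted p = 0.000714), with adjusted p of 0.933 and 0.263 in limma. KLF10 itself differed by 0.18 and -0.02 in the same comparisons. The list medians were 0.00 for Group 1 against 2, -0.28 for Group 3 against 2 and 0.10 for Group 1 against 3.

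Around KLF15, which had no row, the metabolic genes it regulates in heart and muscle gave 1 of 10 at an unadjusted p under 0.05 in Group 3 against Group 2 and 0 of 10 in the other comparisons, beside 4.65% of all genes lower and 2.57% higher in the first. That gene was ALDH6A1, an enzyme of valine breakdown, at 0.446, 0.345 and 1.64 TPM in Group 3 and 1.90, 2.54 and 3.02 TPM in Group 2 (unadjusted p = 0.0151, adjusted p = 0.559, limma). The hypertrophy and matrix genes it restrains gave 1 of 7 higher in Group 1 against Group 2, beside 1.82% of all genes. It was NPPB, the natriuretic peptide B gene, at 9.88, 49.4 and 76.9 TPM in Group 1 and 5.96, 8.12 and 19.3 TPM in Group 2. The difference was 1.68 on the log2 scale with overlapping groups (unadjusted p = 0.0494, adjusted p = 0.993, limma). In Group 3 against Group 2 the count was also 1 of 7, GATA4, a cardiac transcription factor, lower in Group 3 by -0.97 (unadjusted p = 0.0483, adjusted p = 0.689, limma), and 3 of 7 genes did not overlap, beside 14.7% of all genes. In Group 1 against Group 3 it was 0 of 7. Markers of lymphocytes, among the cells in which KLF13 is known, summed to between 5.25 and 24.6 TPM over the 9 hearts. Of 5 tested, 0 had an unadjusted p under 0.05 in any comparison. Over all genes that share was 4.97% for Group 1 against 2, 7.22% for Group 3 against 2 and 6.01% for Group 1 against 3, so this count is not a result about them.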

How the data were processed

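Polyadenylated RNA of 9 heart biopsies was sequenced in paired ends. Per the labels and the study's methods, the authors trimmed reads with Trimmomatic 0.36, mapped them with STAR 2.5.2b to an Ensembl Sus scrofa genome, counted unique exon reads with featureCounts (Subread 1.5.2) and deposited TPM values. The genome build and the gene lengths are not given in the sources used here. TPM keep no depth, so counting intervals were not formed. Of the 18 value columns, 9 could not be tied to a sample and were not used.

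A gene was tested if 3 or more hearts reached 1 TPM, which 11782 genes did. Their log2(TPM + 1) was fitted with limma 3.58.1 in R 4.3.3, with 1 mean per group, all 9 hearts and a variance trend, and p was adjusted by Benjamini-Hochberg within each comparison. The step was tested on simulated data. Single members, ratios and correlations used two-sided exact permutation tests by full enumeration (numpy 2.4.6). Ranks and the adjustment over ratios or pairs came from scipy 1.17.1. Correlations were of log2(TPM + 1). Each group has 3 pigs and 1 biopsy per pig. The 19 alternatives per comparison were the omission of each of the 9 hearts and 10 others: quantile normalization, median-of-ratios scaling, no filter on low values, a pseudocount of 0.1, a filter at a mean TPM of 5, removal of mitochondrially encoded genes, a fit to the 6 hearts compared, eBayes without trend, robust eBayes, and array weights, for which the iteration ended early.

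Gene lists were written from general knowledge. Genes of a list could be named at an unadjusted p under 0.05 or as 1 of its 2 most abundant, and for each member the 3 genes with the highest r were named. Although the rule for members uses no measured value, the members and the lists were chosen with earlier results of these data known. No sequences or coordinates are printed.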

Additional observations from a re-analysis of the deposited data

How the results depend on the processing

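With 3 hearts a group the confidence intervals are wide, the depth is unknown, and every statement on the 4 members rests on TPM scaled to a common total. No paired analysis was possible because pigs are not shared between groups and carry no common replicate number. The count of members at an adjusted p under 0.05 was 0 in all 3 comparisons under all 19 alternatives. The count at an unadjusted p under 0.05 was also 0, except under quantile normalization, where it was 1, KLF4, in Group 3 against Group 2 and in Group 1 against Group 3, and the cause was not tested.

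Differences near 0 changed sign. For Group 1 against Group 2, KLF4 gave 0.074 after median-of-ratios scaling, 0.035 after quantile normalization and 0.032 with array weights, KLF9 gave 0.09 and 0.005 after the first and second of these, and KLF13 gave -0.045 with array weights. KLF10 gave 0.027 for Group 1 against Group 3 after median-of-ratios scaling. When single hearts were omitted, the values for Group 1 against Group 2 ran from -0.19 to 0.14 for KLF4, -0.22 to 0.15 for KLF9 and -0.30 to 0.37 for KLF13. Those for Group 3 against Group 2 ran from -0.012 to 0.46 for KLF10, and those for Group 1 against Group 3 from -0.28 to 0.20 for KLF10 and -0.46 to 0.21 for KLF13. KLF4 kept its sign in all 19 alternatives for Group 3 against Group 2 (0.24 to 0.67) and Group 1 against Group 3 (-0.69 to -0.31). The ratio of KLF10 to KLF9, its pooling of both HOPE groups and the other scalings of the correlations were examined after seeing the data.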
